A study of Mus musculus with 4 samples.

Results

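The genes described here encode the proteins of the cytosolic ribosome, measured by RNA-seq in colonic mucosa of wild-type mice and of mice lacking Itch, an E3 ubiquitin ligase. They were taken by symbol from the count file of WT replicate 1: every symbol made of Rpl or Rps, a number and at most 1 closing letter a, x, y or l, together with Rplp0, Rplp1, Rplp2 and Rpsa, leaving out pseudogene names and the S6 kinase genes. The rule reads symbols alone. It gave 79 of the 19308 genes listed in all 4 files, of which by name 31 belong to the small 40S subunit (Rpsa included), 45 to the large 60S subunit and 3 to the P stalk. All 79 are annotated as protein-coding, and they lie on 19 chromosomes. The symbol rule does not reach Fau, Rps3a1 or the paralogs Rpl22l1, Rpl36al and Rpl7l1.

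There were 2 WT libraries, from mice labelled C57BL/6, and 2 Itch KO libraries, all from total RNA. The protocol speaks of inflammation for the knockout mucosa alone, whereas the state label reads inflammation for every sample. The sources used here give no age, sex, Itch allele, strain of the Itch KO mice or number of animals behind a library. P-values therefore measure only the spread between these libraries, and in bulk mucosa more RNA per cell cannot be told apart from more cells of a type rich in that RNA.

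Each ribosome holds 1 copy of nearly every one of these proteins. The small subunit decodes the mRNA, the large subunit joins amino acids, and the P stalk, made of Rplp0 with Rplp1 and Rplp2, recruits the elongation factors. Most of the mRNAs begin with a run of pyrimidines, the TOP tract (terminal oligopyrimidine), through which mTOR signalling and the RNA-binding protein Larp1 adjust their translation together. In the colon the rapid division of crypt cells and the secretory work of plasma cells and goblet cells make ribosome synthesis a large expense.

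The annotated starts of the members were searched for such a tract, defined as a C within 5 bases of the start followed by at least 4 C or T, in RefSeq sequences of GRCm38.p6. Windows were found for 58 members, and 28 of these held a tract in at least 1 window. By window, 30 of 70 matched (42.9%), against 6027 of 32851 RefSeq start windows of all genes (18.3%). On the opposite strand 12.9% of the member windows and 21.4% of all windows matched. Printed here are the 30 bases from 20 before the start, with the tract in capitals, for the 5 members with the highest fold change described further on (Rpl37a, Rplp2, Rps13, Rps24 and Rpl31), for Rps6, the S6 kinase substrate, for Rpl27a, whose tract was the longest at 20 bases and runs past the window, and for Rpl4, the member with the most counts.
Rpl37a (chr1:72711240-72711269, plus strand): gtcacttccgctcgccggtctaaaaccgcg
Rplp2 (chr7:141447631-141447660, plus strand): cccactgcgtcagcgtCTTCCTTTCgccgc
Rps13 (chr7:116334181-116334210, minus strand): cgcgcgagagcaaacgtcggtgagtggcgt
Rps24 (chr14:24490658-24490687, plus strand): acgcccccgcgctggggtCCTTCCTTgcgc
Rpl31 (chr1:39367831-39367860, plus strand): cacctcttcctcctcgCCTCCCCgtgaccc
Rps6 (chr4:86857358-86857387, minus strand): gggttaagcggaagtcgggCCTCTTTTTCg
Rpl27a (chr7:109519175-109519204, plus strand): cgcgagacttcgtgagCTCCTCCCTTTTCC
Rpl4 (chr9:64173367-64173396, plus strand): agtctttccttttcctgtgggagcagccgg
The windows of Rpl37a, Rps13 and Rpl4 hold no match to this definition at the annotated start. The 28 tested members with a tract had a median log2 fold change, Itch KO over WT, of 0.36, and the 29 without one in their window had 0.30, with overlapping quartiles (0.27 to 0.42 and 0.26 to 0.37).

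Library totals over the shared genes were 8181193 to 12199709 counts. Itch itself was at 204 and 183 CPM (counts scaled to library size with TMM factors) in WT and at 11.9 and 13.4 CPM in Itch KO, so the libraries matched their labels, with a log2 fold change of -3.93 (SE 0.15) and an adjusted p of 0.0922 by edgeR's quasi-likelihood test. All 16 colon epithelium markers were detected, summing to 2486 to 3368 CPM per library. The 12 squamous epithelium markers summed to 937 CPM in WT replicate 1 and to 16.2, 30.7 and 37.3 CPM in WT replicate 2, Itch KO 1 and Itch KO 2, so WT replicate 1 stood apart. The summary values of the members and of the gene lists are also given without it.

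Ribosomal protein genes took up a small part of every library, and a larger part in Itch KO. Their summed counts were 28886 and 33902 in WT and 30187 and 33100 in Itch KO. As a share of all counts this was 0.299% (95% Wilson interval 0.295% to 0.302%) and 0.278% (0.275% to 0.281%) in WT, and 0.369% (0.365% to 0.373%) and 0.350% (0.346% to 0.354%) in Itch KO. The intervals cover counting error only and leave out the spread between libraries. Where PCR copies of a read were counted they are too narrow even for that, since such copies are not independent molecules. Both Itch KO libraries lay above both WT libraries, with means of 0.288% ± 0.0146 and 0.359% ± 0.0136 (SD, n = 2), a ratio of 1.25, and of 1.29 without WT replicate 1. An exact permutation test of 2 libraries against 2 cannot pass 0.05, so the share was not tested. The shares ran in the reverse order of the library totals. These totals were 8181193 and 9463759 in Itch KO 1 and 2, and 9674531 and 12199709 in WT 1 and 2. Both Itch KO libraries were shallower than both WT libraries, so depth and genotype cannot be told apart in this order.

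Of the 79 members 78 had enough counts to be tested. In edgeR's quasi-likelihood test none of them passed an adjusted p of 0.05, as none of the 16956 genes tested did (0%), and limma voom also called 0 genes. DESeq2 called 889 genes higher (5.24%) and 807 lower (4.76%), with 0 members among them and 0 members at an unadjusted p below 0.05. At an unadjusted p below 0.05 by edgeR 3 members were higher in Itch KO (3.85% of those tested, against 10.2% of all genes) and 0 were lower (9.52% of all genes). These were Rpl13a, Rps9 and Rps24, with edgeR adjusted p-values of 0.228, 0.237 and 0.239, the smallest among the members. Without WT replicate 2, Itch KO 1 or Itch KO 2 in turn the count of 3 became 0, and without WT replicate 1 it was 2. No single ribosomal protein gene was therefore shown to differ between the groups.

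What the members shared was a small difference of the same sign. Their median log2 fold change was 0.32, with quartiles of 0.25 and 0.39, against 0.01 for all tested genes, whose quartiles were -0.42 and 0.33. The fold change was positive in 76 of 78 members (50.6% of all genes) and negative in 2. In CPM, both Itch KO libraries exceeded both WT libraries in 67 of 78 members (85.9%, against 30.0% of all genes), both lay below in 1 (26.0% of all genes), and the groups overlapped in 10. Without WT replicate 1 the median was 0.43 and 76 members were higher. The median CPM of the members was 32.8 and 30.8 in WT and 41.6 and 39.6 in Itch KO.

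**Figure D1:**
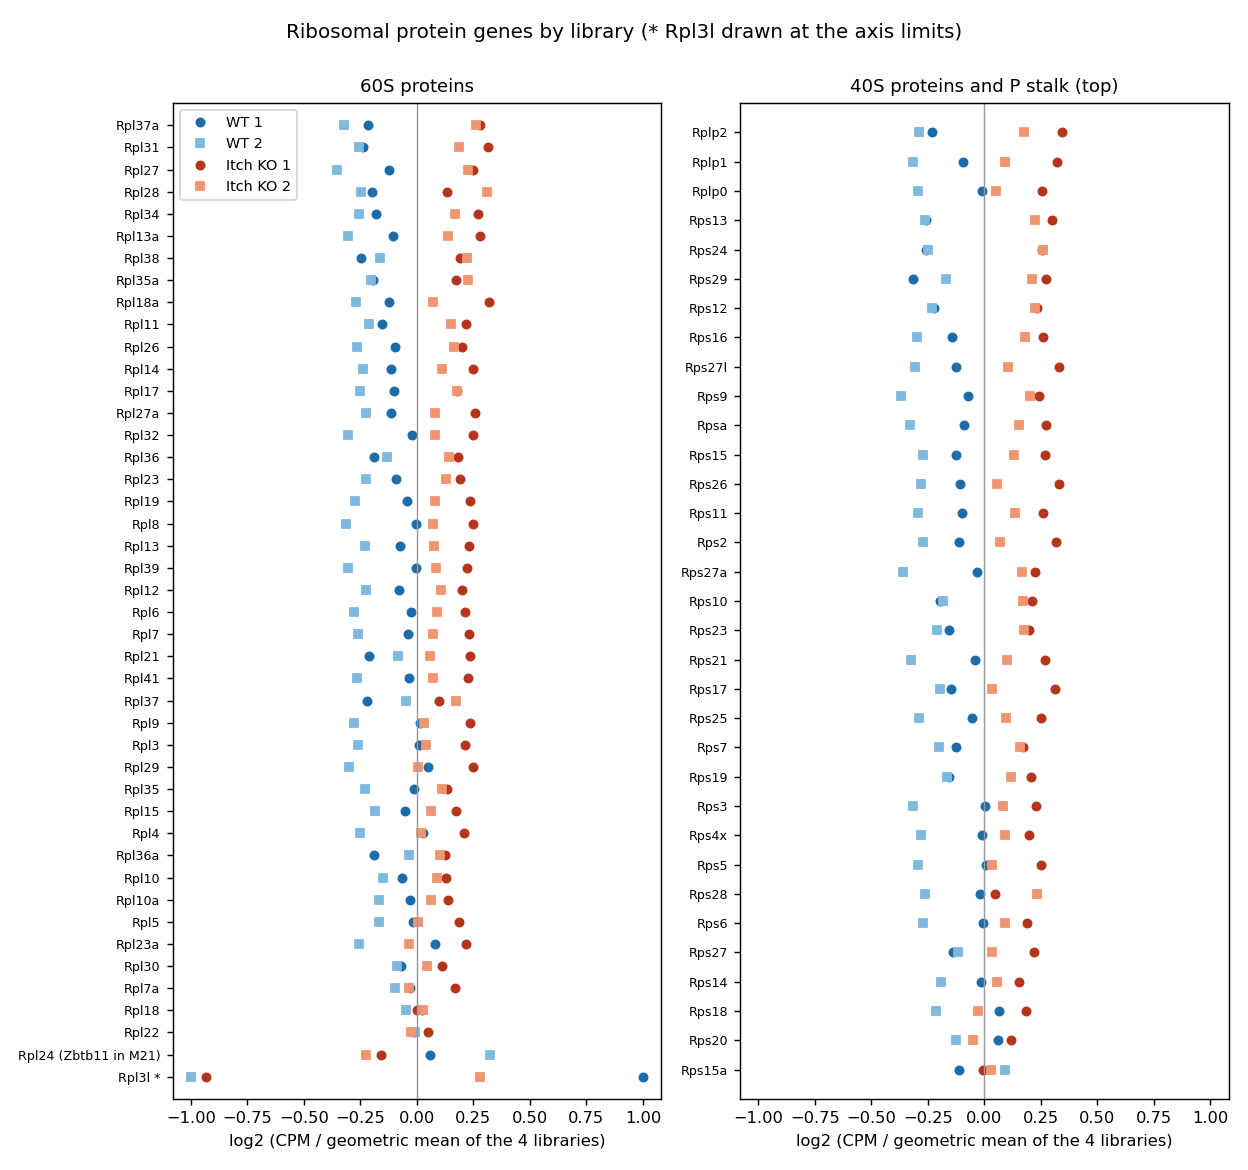
Level of the tested ribosomal protein genes, 1 of them not drawn, in the 4 libraries, as log2 of the CPM over the gene's geometric mean, with the 60S genes on the left and the 40S and stalk genes on the right, ordered by fold change. Blue points are WT and red points Itch KO, and the red points lie to the right of the blue in most of the genes drawn.

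The 3 stalk genes had a median of 0.41 and all 3 were higher without overlap, as were 30.0% of all genes. With the trend on exonic length removed, as described further on, their median was 0.13, and without WT replicate 1 it was 0.55. Rplp2 stood at 24.3 and 23.4 CPM in WT, against 36.2 and 32.2 CPM in Itch KO, a log2 fold change of 0.52 (SE 0.23, edgeR adjusted p = 0.303). Rplp1, its partner in the stalk dimers, had 27.8 and 23.9 CPM in WT and 37.2 and 31.7 in Itch KO, a log2 fold change of 0.41. Rplp0, which anchors the dimers to the large subunit, had 80.5 and 66.2 CPM in WT and 96.7 and 84.2 in Itch KO, a log2 fold change of 0.30. In Rplp0 the gap between the groups, from 80.5 to 84.2 CPM, was smaller than the gap between the WT libraries.

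All 31 genes of the 40S subunit had a positive fold change (50.6% of all genes), with a median of 0.36. Of these 28 were higher without overlap (90.3%, against 30.0% of all genes). The median was 0.16 with the length trend removed and 0.46 without WT replicate 1. Rps24, needed for maturation of the small subunit rRNA, stood at 30.7 and 31.0 CPM in WT, against 43.9 and 44.0 CPM in Itch KO, a log2 fold change of 0.51 (SE 0.18, edgeR adjusted p = 0.239). The 2 libraries of each group were nearly equal for this gene. Its exonic length of 6256 bases is long for a ribosomal protein gene, though its main annotated mRNA has 1613. Rps13, an rRNA-binding protein of the small subunit, had 11.8 and 11.8 CPM in WT and 17.4 and 16.5 in Itch KO, a log2 fold change of 0.52. Rpsa, which also serves as the laminin receptor, had 55.7 and 47.2 CPM in WT and 71.6 and 65.9 in Itch KO, a log2 fold change of 0.42 (edgeR adjusted p = 0.262). Rps9 had 82.6 and 67.1 CPM in WT and 102 and 99.7 in Itch KO, a log2 fold change of 0.43.

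Below the median of the subunit stood Rps19, Rps6 and Rps15a. Rps19, the gene most often mutated in Diamond-Blackfan anaemia, stood at 30.9 and 30.7 CPM in WT, against 39.8 and 37.5 CPM in Itch KO, a log2 fold change of 0.33. Rps6 had 49.4 and 41.1 CPM in WT and 56.4 and 52.8 in Itch KO, a log2 fold change of 0.27. For Rps6 the step between the groups was smaller than the gap between the WT libraries. Rps15a, with the lowest fold change of the subunit, had 33.1 and 38.1 CPM in WT and 35.6 and 36.6 in Itch KO, and its groups overlapped.

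Of the 44 tested genes named for the 60S subunit 36 were higher without overlap (81.8%, against 30.0% of all genes) and 1 lower (2.27%, against 26.0%). The 1 lower was the identifier that GENCODE M21 names Zbtb11, described further on, and it is counted in these values. The median of the 44 was 0.30. The median was 0.13 with the length trend removed and 0.42 without WT replicate 1. Rpl37a had the highest fold change of all members, at 18.6 and 17.3 CPM in WT, against 26.2 and 25.9 CPM in Itch KO, a log2 fold change of 0.54 (SE 0.27, edgeR adjusted p = 0.347). Rpl31, which lies near the exit of the peptide tunnel, had 17.1 and 16.9 CPM in WT and 25.1 and 22.9 in Itch KO, a log2 fold change of 0.50. Rpl13a, known also for a role in silencing inflammatory mRNAs after phosphorylation, had 80.8 and 70.4 CPM in WT and 106 and 95.6 in Itch KO, a log2 fold change of 0.41 (SE 0.14). These 3 genes were higher in both Itch KO libraries, by more than the gap between libraries of a group.

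Rpl5 and Rpl11, which bind MDM2 together with the 5S rRNA when ribosome assembly stalls, both had positive fold changes. Rpl11 stood at 28.2 and 27.1 CPM in WT, against 36.5 and 34.8 CPM in Itch KO, a log2 fold change of 0.37 (SE 0.21). Rpl5 had 55.2 and 49.7 CPM in WT and 63.5 and 56.1 in Itch KO, a log2 fold change of 0.19 (SE 0.16), and its lower Itch KO library lay just above its higher WT library. The distance between the 2 fold changes is of the size of their standard errors, and it was not tested. Rpl10, the last protein to join the large subunit, had 56.0 and 52.9 CPM in WT and 64.3 and 62.4 in Itch KO, a log2 fold change of 0.22.

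The members outside this pattern were few. Rpl22, a large subunit protein that binds viral and cellular RNAs, stood at 106 and 106 CPM in WT, against 111 and 105 CPM in Itch KO, with a log2 fold change of 0.02 (SE 0.11). Rpl18 had 46.2 and 43.9 CPM in WT and 45.5 and 46.3 in Itch KO, a log2 fold change of 0.03 (SE 0.16). The groups overlapped in both, and the sign of these fold changes and of that of Rps15a turned under other scalings. Rpl4 had 133 and 109 CPM in WT and 151 and 132 in Itch KO, a narrow overlap with a log2 fold change of 0.22.

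The identifier that the deposited file names Rpl24 (ENSMUSG00000022601, chr16:55973883-56008913 on GRCm38, 7440 exonic bases) is Zbtb11, a zinc finger gene, in GENCODE M21. It was the 1 member lower without overlap, at 58.0 and 69.8 CPM in WT, against 49.9 and 47.7 CPM in Itch KO, a log2 fold change of -0.39 (SE 0.17, edgeR adjusted p = 0.293). The identifier that GENCODE M21 names Rpl24 (ENSMUSG00000098274, chr16:55966275-55971435) is written in capitals in the file and so fell outside the symbol rule. It stood at 5.55 and 5.46 CPM in WT, against 7.25 and 7.23 CPM in Itch KO, a log2 fold change of 0.39 (SE 0.45). The negative value under the name Rpl24 is thus read from a gene that this annotation gives another name, and without it the median of the other 77 members was 0.32.

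The 3 paralogs named with a closing l are genes whose expression is known to be restricted by tissue or induced. Rpl3l, the striated muscle form of Rpl3, was at 5.65 CPM in WT replicate 1 and at 0.244, 0.491 and 1.14 CPM in WT replicate 2, Itch KO 1 and Itch KO 2. Its log2 fold change of -1.81 (SE 1.49) rested on WT replicate 1, and without that library it was 1.72 (edgeR adjusted p = 0.51). The same library held Krt5, a squamous epithelium keratin, at 138 CPM, against 0.244, 0.860 and 3.10 CPM in the other 3, and the part of that tissue in the Rpl3l value was not tested. Rpl39l, best known from testis, held 1 and 2 counts in WT and 4 and 5 in Itch KO, too few for a fold.

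The parent genes of these paralogs followed the other members. Rpl3 stood at 55.4 and 46.0 CPM in WT, against 63.8 and 56.5 CPM in Itch KO, a log2 fold change of 0.25, and Rpl39 had 18.1 and 14.8 CPM in WT and 21.3 and 19.3 in Itch KO, a log2 fold change of 0.30. Rps27l, a p53-induced paralog, had 27.8 and 24.6 CPM in WT and 38.2 and 32.7 in Itch KO, a log2 fold change of 0.44 (SE 0.23). Its parent Rps27 had 8.43 and 8.56 CPM in WT and 10.8 and 9.50 in Itch KO, a log2 fold change of 0.26 (SE 0.42). Per kb of exon Rps27l held a mean of 365 reads and Rps27 held 87.2. Per base of main annotated mRNA the gap was smaller, at mean counts of 0.597 and 0.264. Rps27 has 3 near-identical pseudogenes, described further on, and Rps27l has 0. The paralog was read more densely than its parent by both measures, and the part of reads lost to such copies was not tested.

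Before any scaling the members' counts were close to level across libraries of unequal depth. Relative to WT replicate 1 the median count ratio of the members was 1.18 in WT replicate 2, 1.07 in Itch KO 1 and 1.17 in Itch KO 2. For the other tested genes these medians were 1.31, 0.885 and 1.05, and the library totals stood at 1.26, 0.848 and 0.979. The members thus lay below the library total in WT replicate 2 and above it in both Itch KO libraries. Compared as deposited, with no scaling, 7 members were higher in Itch KO without overlap (11.1% of all genes), 4 were lower (37.8% of all genes) and 67 overlapped, and the median log2 ratio was 0.04.

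**Figure D2:**
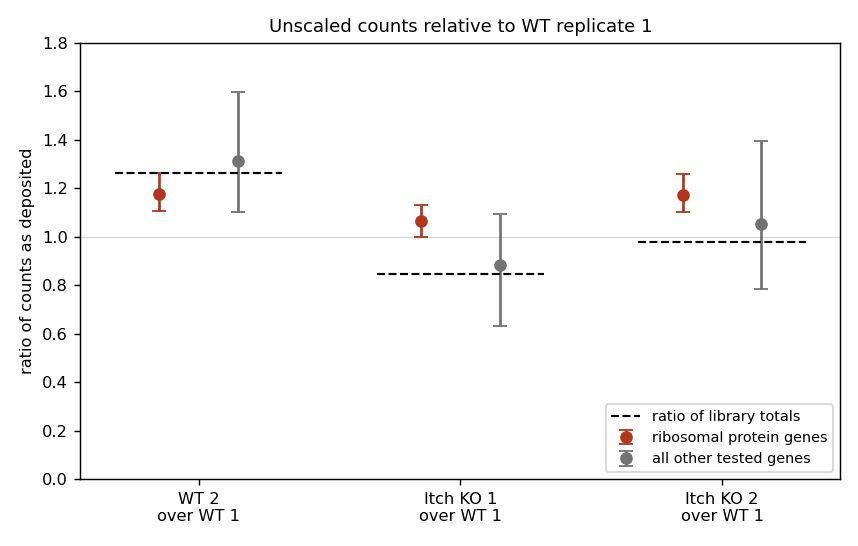
Ratio of the deposited counts of each library to those of WT replicate 1, as the median and quartiles over the 78 ribosomal protein genes (red) and over all other tested genes (grey), with the ratio of library totals as a dashed line. The members' medians lie between 1.07 and 1.18 while the library totals range from 0.848 to 1.26.

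WT replicate 1 and Itch KO 2 had nearly the same depth, so a comparison of this pair depends least on scaling. It sets 1 library against 1, and WT replicate 1 is the library that stood apart in squamous markers. In that pair 69 of 78 members had the higher CPM in Itch KO 2, against 52.3% of all genes, with a median log2 ratio of 0.18 (0.03 over all genes). Libraries of 1 group also differed together. WT replicate 1 exceeded WT replicate 2 in 66 members, by a median log2 ratio of 0.15, and Itch KO 1 exceeded Itch KO 2 in 69 members, by 0.11. In each group the shallower library had the higher values, and the part of depth in the difference between the groups was not tested.

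Short genes ran higher in the Itch KO libraries throughout the table, and the members are short. Among genes other than members the median log2 fold change went from 0.31 at up to 1000 exonic bases, through 0.24 and 0.15 in the next 2 classes, to -0.23 above 6000 bases. The members' medians were 0.40 for 10 genes up to 1000 bases, 0.32 for 32 genes up to 2000, 0.33 for 20 genes up to 3000 and 0.30 for 9 genes up to 4000. In each class the median of the members lay above that of the other genes. In the class over 6000 bases, with 3 members, it was 0.02. These 3 were the identifier that GENCODE M21 names Zbtb11 (-0.39), Rps15a (0.02) and Rps24 (0.51). The main annotated mRNAs of Rps15a and Rps24 have only 640 and 1613 bases. The median exonic length was 1806 bases for the members and 4025 for all tested genes.

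When the trend on exonic length was removed from each library, the median log2 fold change of the members was 0.14 (0.01 for all genes), and 72 of 78 stayed positive. Then 35 members were higher without overlap (28.2% of all genes) and 2 lower (23.9% of all genes). Rps24 went from a log2 fold change of 0.51 to 0.61, Rps13 from 0.52 to 0.40 and Rplp2 from 0.52 to 0.36. Rps15 went from 0.40 to 0.13, Rplp1 from 0.41 to 0.13 and Rpl36 from 0.32 to 0.05. The last 3 have 630, 499 and 383 exonic bases, and the first 3 have 6256, 2691 and 2072. Exonic length is the union of all annotated exons and can far exceed the main annotated mRNA. That mRNA has 1613, 589 and 421 bases in Rps24, Rps13 and Rplp2, and Rps19 has 633 against 4685 exonic bases. Such genes were thus adjusted as longer genes than their mRNAs are. The median difference of the members was 0.32 with and 0.14 without the trend on exonic length, and a trend on mRNA length was not tested.

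**Figure D3:**
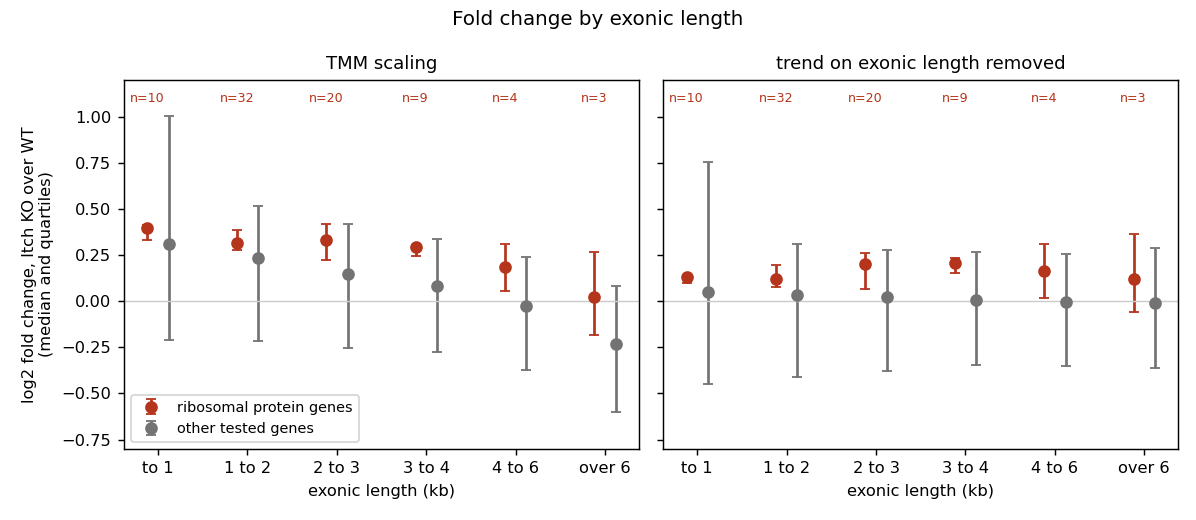
Median and quartiles of the log2 fold change, Itch KO over WT, by exonic length class for ribosomal protein genes (red, n above each class) and other tested genes (grey), with TMM scaling on the left and with the length trend removed on the right. On the left the grey medians go from 0.31 in the shortest class to -0.23 in the longest, and on the right the red medians lie at 0.12 to 0.20.

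Per kb of exon, taken as the union of all annotated exons, the members were read more densely than the typical gene. Their median was 165 and 188 reads per kb in WT and 178 and 198 in Itch KO, against 94.5 and 128 and 83.2 and 105 for all tested genes. Of the 78 members 16 were in the densest of 10 equal classes of all tested genes and 64 in the densest 5 classes. Among genes other than members the median log2 fold change rose with density, from -0.49 in the least dense class to 0.18 in the densest. The 16 members of the densest class had a median of 0.32. The densest were Rps15, a protein of the 40S head, and Rpl4, a lining of the peptide tunnel, both at a mean of 634 reads per kb, followed by Rplp1 at 583, Rpl8 at 568 and Rpl36 at 507. No member exceeded 1342 counts in any library, and that count was of Rpl4.

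The count of a member went with the length of its coding sequence. Over 76 members with a mean of at least 25 counts, the Zbtb11 identifier left out, the rank correlation of mean count and coding length was 0.71, and over the 18 of them with no near-identical pseudogene it was 0.67. These are correlations across genes, which share libraries and are not replicates. The mean count per base of mRNA had a median of 0.490 and ranged from 0.088 to 2.23. Rpl22, with 384 coding bases, and Rpl41, with 75, lay above the trend, and Rpl23a and Rpl35 below it. No source used here states whether duplicate reads were removed, a step that limits the reads counted per position. Its part in counts that go with length, stay near level across depths and so give the shallower library the higher CPM was not tested, and the fold changes above carry that limit.

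**Figure D4:**
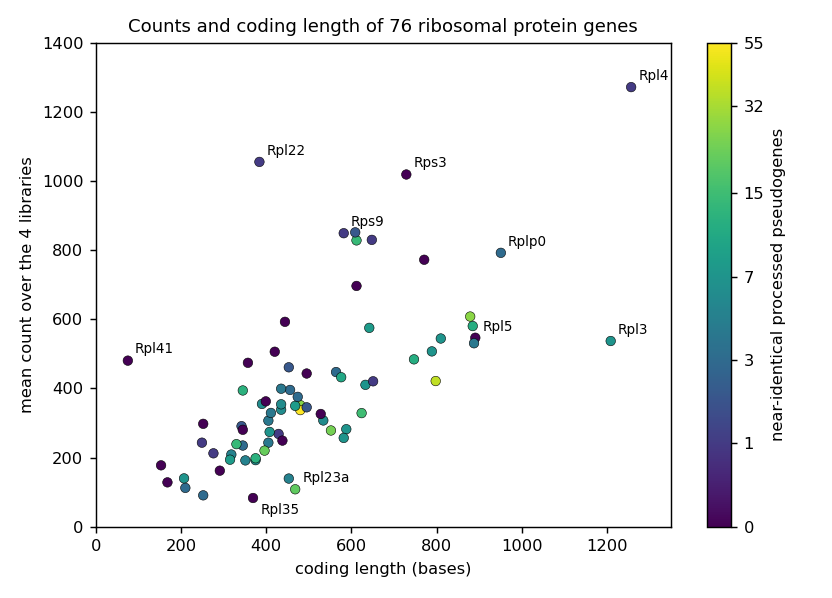
Mean count over the 4 libraries against coding length for 76 ribosomal protein genes, coloured by the number of near-identical processed pseudogenes in the genome. Counts climb with coding length (rank correlation 0.71), with Rpl4 at the top right and Rpl22, Rps3 and Rpl41 above the trend.

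Reads of these genes can be shared with processed pseudogenes. In GENCODE M21 58 of the 79 members had at least 1 pseudogene with 95% identity or more over at least 50% of the mRNA, 490 in all, with a median of 3 per member and 55 for Rpl21. Of these 39 were listed in all 4 files, and they held 8398 and 9553 counts in WT and 9074 and 9626 in Itch KO, equal to 28.2% to 30.1% of the members' own counts. For 8 pseudogenes the mean count was at least that of the parent. Rpl23a, a 60S protein at the tunnel exit, held 110, 114, 105 and 105 counts in WT 1, WT 2, Itch KO 1 and Itch KO 2, while its copy Gm10335, 99.8% identical, held 339, 376, 347 and 367. Rpl27 held 241, 269, 270 and 317 counts and Rpl27-ps3, identical over 411 bases, held 302, 344, 338 and 368. The levels of such members are uncertain, since the deposited counts do not show how reads were divided. HTSeq's line for reads aligned to more than 1 place stood at 0 in the 3 files that hold summary lines. The 38 tested pseudogenes had a median log2 fold change of 0.31. Tested members with and without such a copy, the Zbtb11 identifier left out, had medians of 0.33 (58 genes) and 0.31 (19 genes).

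The introns of these genes also carry small nucleolar RNA genes, which guide rRNA modification. In the annotation 29 of 79 members (36.7%) hosted at least 1, 56 in all, against 232 of 16866 protein-coding genes listed (1.38%). Rpl4 hosted 5 and Rpl13a hosted 4. Hosts had a median log2 fold change of 0.31 and 48 other tested members, the Zbtb11 identifier left out, one of 0.33, with medians of 183 and 188 reads per kb.

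Genes that build, regulate and use ribosomes were read from 6 lists with 193 genes, all tested, and 0 of them were called by edgeR. The 56 genes of nucleolar rRNA processing and assembly had a median log2 fold change of 0.23, and 43 were higher without overlap (76.8%, against 30.0% of all genes) and 2 lower (3.57%, against 26.0%). At an unadjusted p below 0.05 by edgeR 9 of them were higher (16.1%, against 10.2% of all genes) and 2 lower (3.57%, against 9.52%). Noc4l, a small subunit assembly factor, stood at 50.3 and 48.3 CPM in WT, against 80.1 and 77.8 CPM in Itch KO, a log2 fold change of 0.68 (SE 0.13, edgeR adjusted p = 0.131). Bysl, which acts in the same subunit's maturation, had 56.2 and 58.5 CPM in WT and 84.4 and 85.9 in Itch KO, a log2 fold change of 0.57 (edgeR adjusted p = 0.142). Both lay outside the WT range by far more than the gap within groups. With the length trend removed the median of the list was 0.19, beside 0.14 for the ribosomal protein genes, and without WT replicate 1 it was 0.26, beside 0.43.

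The 32 genes of RNA polymerases I and III, which transcribe rRNA and tRNA, had a median of 0.01, with 11 higher (34.4%) and 6 lower (18.8%) without overlap, near the 30.0% and 26.0% of all genes, and 0 at an unadjusted p below 0.05 by edgeR. Their median was 0.05 with the length trend removed and close to 0 without WT replicate 1. The 2 genes with the smallest p were Znrd1 and Polr1d. Znrd1 stood at 27.1 and 26.6 CPM in WT, against 38.8 and 36.0 CPM in Itch KO (log2 fold change 0.48), and Polr1d had 80.4 and 73.1 CPM in WT and 103 and 91.1 in Itch KO (0.34). The 22 cytosolic aminoacyl-tRNA synthetases, which charge tRNAs, had a median of 0.26, with 16 higher (72.7%, against 30.0% of all genes) and 0 lower without overlap and 4 higher (18.2%, against 10.2%) at an unadjusted p below 0.05 by edgeR. Cars, for cysteine, had 72.5 and 74.9 CPM in WT and 113 and 103 in Itch KO, a log2 fold change of 0.55 (edgeR adjusted p = 0.142), and Hars, for histidine, had 73.8 and 66.8 CPM in WT and 98.3 and 90.3 in Itch KO. The synthetases are long genes, with a median of 4840 exonic bases, and their median was 0.27 with the length trend removed and 0.32 without WT replicate 1.

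The 21 elongation factors and other genes with TOP mRNAs had a median of 0.20, with 9 higher (42.9%, against 30.0% of all genes) and 0 lower without overlap and 1 higher (4.76%, against 10.2%) at an unadjusted p below 0.05 by edgeR. Eef1d, which recharges the factor that brings tRNAs, stood at 74.9 and 68.9 CPM in WT, against 99.6 and 94.8 CPM in Itch KO (log2 fold change 0.44), and Eef1g had 70.6 and 61.5 CPM in WT and 89.1 and 81.8 in Itch KO (0.37). The 34 initiation factors had a median of 0.18, with 18 higher (52.9%, against 30.0%) and 1 lower (2.94%, against 26.0%) without overlap and 2 higher (5.88%, against 10.2%) at an unadjusted p below 0.05 by edgeR. Eif2b2 had 55.9 and 56.9 CPM in WT and 78.3 and 73.3 in Itch KO (0.43), and Eif1a had 104 and 103 CPM in WT and 142 and 128 in Itch KO (0.38). With the length trend removed the medians were 0.10 for the elongation list and 0.17 for the initiation factors, beside 0.14 for the ribosomal protein genes, so the order of these lists depends on the scaling. Without WT replicate 1 they were 0.31 and 0.28, beside 0.43.

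**Figure D5:**
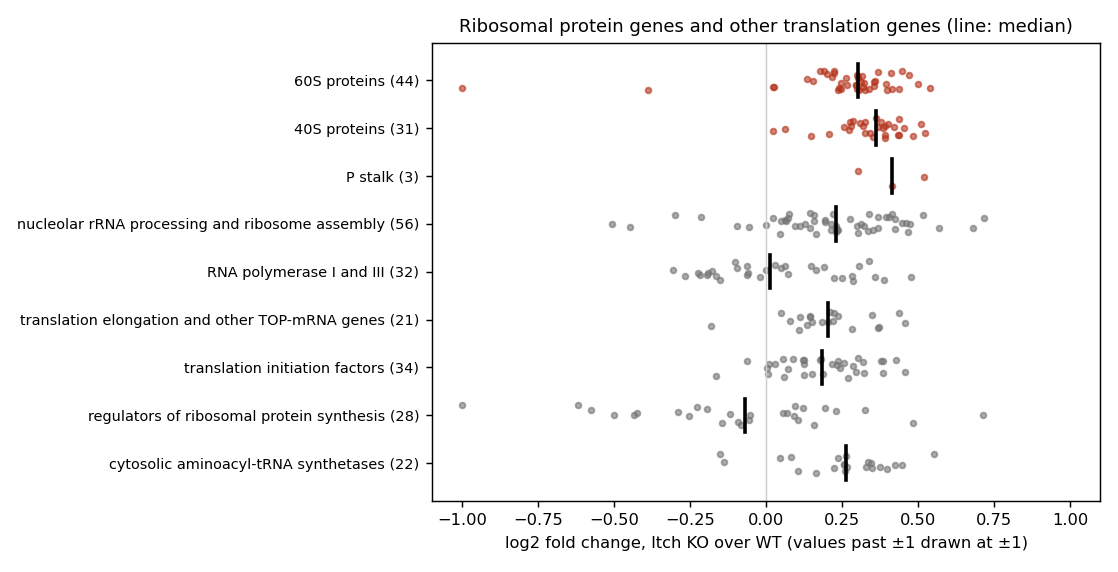
Log2 fold change, Itch KO over WT, of each tested gene in the 3 classes of ribosomal protein genes (red) and in 6 lists of genes that build, regulate or use ribosomes (grey), with the median as a black line and values past 1 in size drawn at the edge. The 60S, 40S and stalk medians are 0.30, 0.36 and 0.41, and those of the grey lists lie between -0.07 (regulators, 0.03 with the length trend removed) and 0.26.

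The 28 regulators of ribosomal protein synthesis were mixed, and the sign of their median depended on the scaling. The median was -0.07 with 12 positive, but 0.03 with 16 positive when the length trend was removed, and -0.07 without WT replicate 1. Without overlap 7 were higher (25%, against 30.0% of all genes) and 11 lower (39.3%, against 26.0%), and at an unadjusted p below 0.05 by edgeR 1 was higher (3.57%, against 10.2%) and 4 were lower (14.3%, against 9.52%). Mtor, the kinase that drives TOP mRNA translation, stood at 143 and 146 CPM in WT, against 102 and 86.0 CPM in Itch KO, a log2 fold change of -0.62 (SE 0.14, edgeR adjusted p = 0.147, DESeq2 adjusted p = 0.025). It has 10109 exonic bases, in the length range where other genes also had negative medians, and its log2 fold change was -0.36 with the length trend removed. Eif4ebp1, the translational repressor that mTOR phosphorylates, had 36.0 and 32.7 CPM in WT and 56.6 and 56.0 in Itch KO, a log2 fold change of 0.71 (edgeR adjusted p = 0.151). Myc, a driver of ribosome synthesis, had 67.9 and 67.2 CPM in WT and 74.7 and 69.2 in Itch KO (log2 fold change 0.09), and Larp1 had 246 and 243 CPM in WT and 246 and 216 in Itch KO (-0.08). With the length trend removed Myc stood at -0.02 and Larp1 at 0.04, so neither has a settled sign.

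Markers of immune cells differed between the groups far more than the ribosomal protein genes. All 15 B and plasma cell markers had higher CPM in both Itch KO libraries than in both WT libraries (30.0% of all genes). Their sums were 412 and 447 CPM in WT and 1342 and 1342 CPM in Itch KO. All 13 T cell markers did so as well, summing to 109 and 148 against 321 and 451 CPM. Neutrophil markers, 14 genes, summed to 281 and 24.1 against 598 and 1040 CPM, with 11 higher without overlap (78.6%, against 30.0% of all genes). Macrophage markers, 13 genes, summed to 736 and 532 against 949 and 1243 CPM, with 10 higher without overlap (76.9%, against 30.0%). The 9 smooth muscle markers summed to 2048 and 1343 against 992 and 1258 CPM. Of them 3 were lower without overlap (33.3%, against 26.0% of all genes) and 0 higher. Their median log2 fold change was -0.11, but 0.15 without WT replicate 1. The colon epithelium markers had a median log2 fold change of 0.05 with 11 of 16 positive. It was -0.09 with 2 positive when the length trend was removed and 0.22 without WT replicate 1. Of these markers 2 were lower without overlap (12.5%, against 26.0% of all genes) and 0 higher (against 30.0%). No marker was at 0 in every library, and the part of these cells in the ribosomal protein values was not tested.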

How the data were processed

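RNA-seq of 2 WT and 2 Itch KO colonic mucosa samples was used, grouped by title. For each library the authors deposited a table of unscaled counts by gene. HTSeq 0.6.1, TopHat2, CASAVA 1.8.2 and SAMtools 0.1.19, and the builds GRCm38 and mm10, are listed in the submitters' processing notes. Strand setting and duplicate removal: not given in the sources used here. The file of WT replicate 1 lists 19308 genes, the other 3 list 39179, and tests used the 19308 shared. HTSeq summary lines (no feature 18.2% to 23.0%, ambiguous 2.67% to 3.03% and alignment not unique 0 in the 3 files that hold them) were left out.

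The deposited counts were tested with edgeR 4.0.16 in R 4.3.3 (TMM, filterByExpr with a minimum count of 10, robust quasi-likelihood test, group as the only term), with Benjamini-Hochberg adjustment over 16956 genes at 0.05, two-sided. Fold changes are those of the fit with edgeR's default prior count. A prior count of 2 was used only for the log CPM values behind the length trend and the correlation of same-numbered libraries. Residual degrees of freedom were 2, and edgeR's biological coefficient of variation was 34.8%. Exonic length is the union of exons in GENCODE M21 (19106 identifiers matched), and the length trend is a lowess fit per library. The code was run on simulated counts with known fold changes and a smaller spread than in these data. That run does not show how the tests behave here. Alternatives were DESeq2 1.42.0, limma voom 3.58.1, other scalings and filters, the replicate block, a length offset and leaving out each library. The members, gene lists and rules were chosen with earlier results of these data known. Named genes were Itch, Rpsa and the stalk, the 5 highest and 5 lowest members by fold change, the 5 densest, paralogs with parents, Rpl5, Rpl11, Rps6, Rps19 and Rpl10, 2 genes per list by p, and Myc, Larp1, Mtor and Eif4ebp1. Rpl13a, Rps9, the second Rpl24 identifier, Krt5, the pseudogenes and the members named for length, counts or snoRNA genes were chosen after their values were seen. The values of 1 member are not reported singly here.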

Additional observations from a re-analysis of the deposited data

How the results depend on the processing

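By edgeR 0 genes and 0 members were called under every alternative run, and DESeq2 called 0 members in every fit. DESeq2 called 1696 genes in all, and 1170, 893, 1229 and 438 without WT 1, WT 2, Itch KO 1 and Itch KO 2, and 1 gene of the translation lists. The median log2 fold change of the members was 0.14 with the length offset, 0.044 with unscaled counts, 0.24 to 0.43 with 1 library left out in edgeR and 0.21 to 0.41 in DESeq2, the highest without WT replicate 1. Members higher without overlap numbered 35 with the length offset and 7 with unscaled counts. The 3 members at an unadjusted p below 0.05 by edgeR became 1 with the length offset and 0 without WT 2, Itch KO 1 or Itch KO 2. The cause of these differences was not tested. The replicate numbers share only a number (r = 0.048 between same-numbered libraries over 16956 genes): with the replicate block 1 member had an unadjusted p below 0.05 and 0 were called, and with the length offset and replicate block together the median was 0.14 with 35 higher.

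Signs turned for genes near 0. With RLE scaling Rps15a was at -0.0042, Rpl22 at -0.0023 and Rpl18 at -0.00049, and with DESeq2 at -0.0045, -0.0023 and -0.00022. With the length offset Rpl22 was at -0.081, Rpl18 at -0.011, Myc at -0.023 and Larp1 at 0.043, and with the replicate block added at -0.081, -0.010, -0.024 and 0.040. With 1 library left out in edgeR the ranges were -0.056 to 0.12 for Rps15a, -0.013 to 0.070 for Rpl22, -0.014 to 0.082 for Rpl18, -0.18 to 0.018 for Larp1 and -2.76 to 1.72 for Rpl3l. In DESeq2 Rps15a was at -0.082 without WT 1 and -0.00054 without Itch KO 2, Rpl22 at -0.010 without WT 2 and -0.026 without Itch KO 1, Rpl18 at -0.045 without WT 2 and Larp1 at 0.0052 without Itch KO 2.

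Depth limits the paralogs most: the lowest count of a tested member was 3, of Rpl3l in WT replicate 2, and Rpl39l was too low to test.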

Other observations

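The nuclear genes of the mitochondrial ribosome, which share the naming scheme but serve a separate ribosome, were read in the same way after the values of the cytosolic genes were seen. Of 76 tested genes 72 had a positive log2 fold change, with a median of 0.30, and 60 were higher in both Itch KO libraries than in both WT libraries (30.0% of all genes). By edgeR 0 were called and 9 were higher at an unadjusted p below 0.05 (11.8%, near the 10.2% of all genes). Their summed level was 3141 and 3278 CPM in WT and 4096 and 3648 CPM in Itch KO. With the length trend removed their median was 0.17, beside 0.14 for the cytosolic ribosomal protein genes.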
